A study of Solanum lycopersicum with 4 samples.

Results

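Transcripts of ANANTHA (AN), FALSIFLORA (FA) and COMPOUND INFLORESCENCE (S), regulators of flower and inflorescence formation, were followed in tomato (Solanum lycopersicum) shoot meristems with and without a working TERMINATING FLOWER (TMF) gene. The 3 genes were taken by identifier from the 34727 genes listed: AN is Solyc02g081670.1.1 and S is Solyc02g077390.1.1, both on chromosome 2, and FA is Solyc03g118160.1.1 on chromosome 3. Their measured values played no part in the rule that picks them, although earlier results of these data were known. All 3 passed the filter on low values. One group carried a mutation in TMF (tmf, with no allele named in the labels) and the other was wild type, with 2 biological replicates of each. Meristems of several plants were combined in each replicate, called tmf pool 1 or 2 and wild-type pool 1 or 2 here, and were collected 8 days after germination, at the late vegetative stage, when the shoot apex still makes leaves. No treatment separates the groups.

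AN encodes an F-box protein related to UNUSUAL FLORAL ORGANS of Arabidopsis and DOUBLE TOP of petunia. FA encodes the tomato LEAFY protein, a transcription factor, and S a WUSCHEL-type homeobox protein of the WOX9 class. In Arabidopsis and petunia the F-box protein binds the LEAFY protein, and the pair switches on floral organ genes together. In tomato, loss of AN or FA keeps meristems from becoming flowers, and loss of S delays that step, so that each mutant has branched inflorescences. AN is known as a late gene of wild-type meristem maturation, active as the flower forms, and S as a gene of the inflorescence meristem that precedes it.

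The libraries held between 17540331 and 28310492 gene-assigned reads. A level is stated in normalised reads, the number of reads of a gene per 10000000 of its library. TMF, whose identifier rests on published nomenclature, had 6.1 and 6.27 normalised reads in the tmf pools against 1238 and 2224 in the wild type, so the libraries separated at the mutated gene as labelled. Each of 8 shoot meristem and boundary genes was read in every library, and their summed level was 6478 and 3953 in tmf pools 1 and 2 and 3744 and 4340 in wild-type pools 1 and 2. Leaf photosynthesis genes were read as well. Across the whole table, the limma test at an adjusted p under 0.05 called 28 of 21437 tested genes higher in the mutant (0.131%) and 18 lower (0.084%). In 20.7% of tested genes both tmf pools lay above both wild-type pools, and in 12.1% both lay below.

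FA, the transcription factor of the pair, was plentiful in every library, with more normalised reads in both tmf pools than in either wild-type pool. It had 3798 and 2388 normalised reads in tmf pools 1 and 2, and 1372 and 1399 in wild-type pools 1 and 2. The wild-type pools were nearly equal and both tmf pools lay above them, a position that 20.7% of all tested genes share. The mutant mean was 3093 ± 997 and the wild-type mean 1386 ± 18.7 (SD, n = 2 each), a 2.23-fold ratio. The log2 fold change on the scale of log2(normalised reads + 1) was 1.12, with a 95% interval of 0.47 to 1.77, and did not pass over all genes (limma, Benjamini-Hochberg adjusted p = 0.32). FA was represented by 3214 to 7473 reads in a library, so counting error was small beside the spread of the mutant pools.

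AN, the F-box partner, was close to the limit of detection in the wild type and well above it in the mutant. A single AN read was found among the 28310492 reads of wild-type pool 1, and 6 reads among the 22977411 of wild-type pool 2. These counts correspond to 0.353 and 2.61 normalised reads, with exact 95% counting intervals of 0.00894 to 1.97 and 0.958 to 5.68. The first of these intervals reaches almost to 0, so the AN level of that pool is barely distinguishable from none at this depth. In the mutant, tmf pool 1 had 855 AN reads and tmf pool 2 had 82, or 435 and 46.7 normalised reads. Both tmf pools thus lay above both wild-type pools, again as in 20.7% of tested genes. With the reads of each genotype pooled, the mutant rate was 184 times the wild-type rate, with a 95% counting interval of 89.2 to 460.1 that rests on the 7 wild-type reads and covers counting error only.

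Despite that size, AN missed the threshold over all genes. Its log2 fold change was 6.03, with a 95% interval of 3.82 to 8.23 and an adjusted p of 0.07 (limma, n = 2 per genotype), which placed it 67th of 21437 genes by p-value. It passed with tmf pool 2 left out (log2 fold change 7.62, limma adjusted p = 0.018) and with DESeq2 on the recovered reads (7.37, adjusted p = 0.0053), settings that called 0.286% and 0.998% of all tested genes in either direction, but not without tmf pool 1 (4.43, limma adjusted p = 0.071). With 1 mutant pool left out, the spread comes from the wild-type pair alone, and the lone mutant pool is assumed to vary like it, which leaves out the 9.3-fold difference in AN between the tmf pools.

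S, the homeobox gene, was read at a low level in all 4 pools. It had 16.3 and 13.7 normalised reads in tmf pools 1 and 2, from 32 and 24 reads, and 17 and 27.4 in wild-type pools 1 and 2, from 48 and 63 reads. Both tmf pools lay below both wild-type pools, as in 12.1% of tested genes, yet the counting interval of tmf pool 1, 11.1 to 23, overlapped that of wild-type pool 1, 12.5 to 22.5. The mutant mean was 15 ± 1.83 and the wild-type mean 22.2 ± 7.4 (SD, n = 2 each). Its log2 fold change was -0.50, with a 95% interval of -1.53 to 0.52 (limma adjusted p = 1), a range from a 2.89-fold lower to a 1.44-fold higher level in the mutant. S therefore did not share the higher mutant levels of AN and FA in these libraries, although a change of moderate size in either direction was not detectable with 2 pools per genotype.

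**Figure D1:**
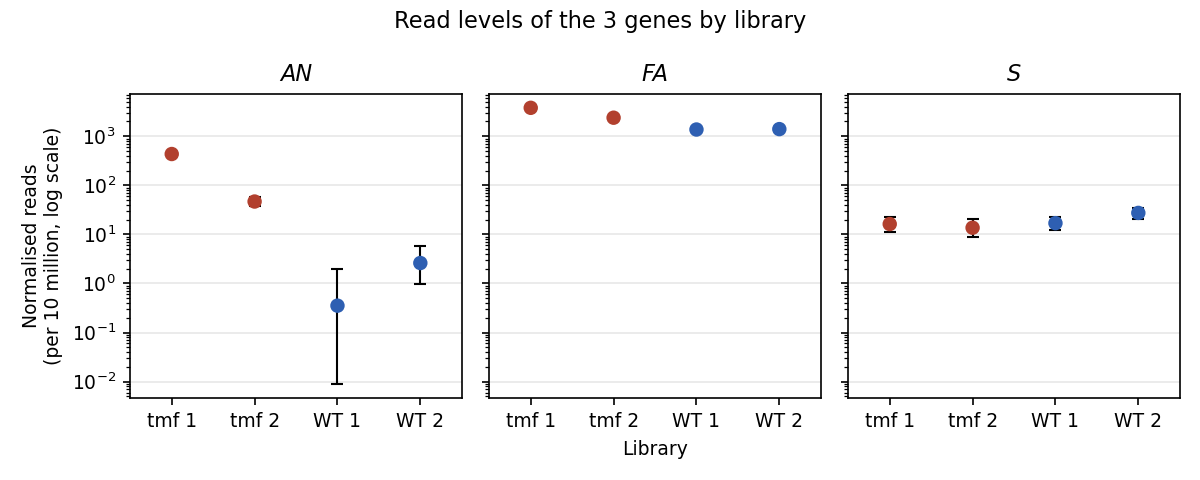
Normalised reads (reads per 10000000, log scale) of AN, FA and S in each of the 4 libraries, with mutant replicates in red and wild-type replicates in blue. Bars are exact 95% counting intervals. AN runs from 0.353 in wild-type pool 1 to 435 in tmf pool 1, while S stays between 13.7 and 27.4.

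The ratio of AN to FA asks which partner of the pair is the scarcer transcript in the wild-type vegetative meristem. Within a library this ratio cannot be altered by scaling. In wild-type pool 1 there were 3885 FA reads to 1 AN read, and in wild-type pool 2 there were 536 FA reads for every AN read. The exact 95% counting intervals of these figures were 697 to 153488 and 246 to 1461. AN was thus the scarcer partner by reads in both wild-type pools. Transcript lengths were not at hand, so these are ratios of reads and not of molecules; for equal numbers of molecules, the FA transcript would have to be 246 times as long as that of AN even at the lowest of these bounds. Protein amounts and the complex itself were not measured, and whether AN limits its activity was not tested.

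Relative to FA, more AN was read in both tmf pools than in either wild-type pool. AN had 11.4 reads per 100 FA reads in tmf pool 1 (95% counting interval 10.6 to 12.3) and 1.96 in tmf pool 2 (1.55 to 2.44). The wild-type values on the same scale were 0.0257 (0.000652 to 0.143) and 0.187 (0.0685 to 0.407). The lower mutant value was 10.5 times the higher wild-type value, and no interval of a mutant library met one of a wild-type library. These intervals cover counting error only, and not the difference between pools, which was 5.84-fold in the mutant and 7.25-fold in the wild type. The geometric mean was 4.73 AN reads per 100 FA reads with the mutation and 0.0693 without it, a 68.3-fold ratio. On the log2 scale the ratio averaged -4.40 ± 1.80 for the tmf pools and -10.49 ± 2.02 for the wild-type pools (SD, n = 2 each), a difference of 6.09. An exact two-sided permutation test over the 4 libraries gave p = 0.333, which is the smallest value that 2 against 2 allows. The share of all genes whose ratio to FA separates the genotypes was not counted. FA remained the partner with more reads in every library: even in tmf pool 1 there were 8.74 FA reads for each AN read, and in tmf pool 2 there were 51.1.

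The ratio of S to FA was lower in both tmf pools than in either wild-type pool. S had 0.428 and 0.573 reads per 100 FA reads in tmf pools 1 and 2, with 95% counting intervals of 0.293 to 0.605 and 0.367 to 0.854. In wild-type pools 1 and 2 it had 1.24 and 1.96, with intervals of 0.909 to 1.64 and 1.5 to 2.51. The groups did not overlap, and neither did the intervals of any mutant library with those of a wild-type library, although these intervals cover counting error only. The geometric mean in the wild type was 3.14 times that in the mutant, a difference of -1.65 on the log2 scale (exact two-sided permutation p = 0.333, the smallest possible). FA itself was higher in both tmf pools, and a lower ratio to FA there was common. Over 21436 genes the median difference in log2(normalised reads + 1) relative to FA was -1.08, beside -1.62 for S on that scale. How many of all genes separate the genotypes by their ratio to FA was not counted.

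The order of the AN and S reads was turned around between genotypes. In wild-type pools 1 and 2 there were 48 and 10.5 S reads for each AN read. In tmf pools 1 and 2 there were 26.7 and 3.42 AN reads for each S read. The log2 ratio of AN to S differed by 7.74 between genotypes (exact two-sided permutation p = 0.333, the smallest possible), and each library's ratio fell on the side of its genotype. S itself was lower in both tmf pools. Over 21436 genes the median difference in log2(normalised reads + 1) relative to S was 0.55, beside 6.53 for AN on that scale. The share of all genes whose ratio to S separates the genotypes was not counted.

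**Figure D2:**
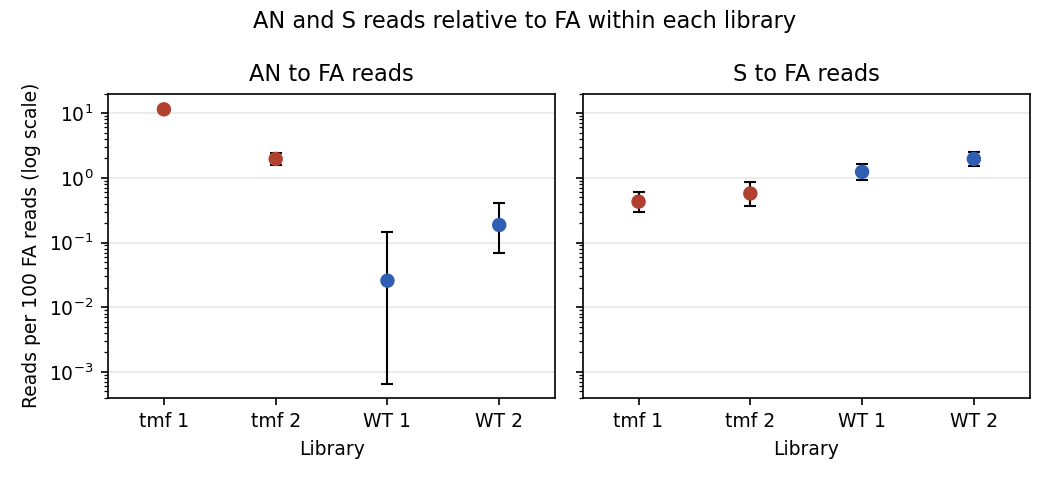
AN reads (left) and S reads (right) per 100 FA reads in each library, on a log scale, with exact 95% counting intervals; mutant libraries are red and wild-type libraries blue. The AN ratio lies at 1.96 and 11.4 in the tmf pools against 0.0257 and 0.187 in the wild-type pools, and the S ratio at 0.428 and 0.573 against 1.24 and 1.96.

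The 3 genes also differed in how far the mutant pools stood apart. AN was 9.3 times as high in tmf pool 1 as in tmf pool 2, FA 1.59 times and S 1.19 times. On the log2(normalised reads + 1) scale the AN difference was 3.19, and among the 17617 genes averaging 10 normalised reads or more 31 (0.176%), AN among them, differed at least as much between these pools in either direction. The FA difference of 0.67 was matched or exceeded by 16.5% of those genes and the S difference of 0.23 by 56.5%, against a median absolute difference of 0.28. The AN to FA ratio itself was 5.84 times as high in tmf pool 1 as in tmf pool 2, so the larger AN level there was not matched by FA. Between the wild-type pools, FA differed by 0.03, S by 0.66 and AN by 1.42 on the same scale, where the AN value rests on 1 and 6 reads.

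Other transcripts moved with this split between the mutant pools. Shoot meristem and boundary genes were higher in tmf pool 1 than in tmf pool 2 in 7 of 8 cases, and inflorescence and floral meristem MADS-box genes in 6 of 6 tested. Leaf photosynthesis genes were lower in tmf pool 1 in 6 of 6 cases, with summed levels of 16019 and 30498 in tmf pools 1 and 2 and 22314 and 26919 in the wild type. Of all 21437 tested genes, 39.8% were higher and 60% lower in tmf pool 1, so the leaf genes lay on the side of the majority and most of the others did not. The part of these differences in the AN values was not tested. In pooled meristems, more cells with AN transcripts and more AN RNA in each cell cannot be told apart.

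**Figure D3:**
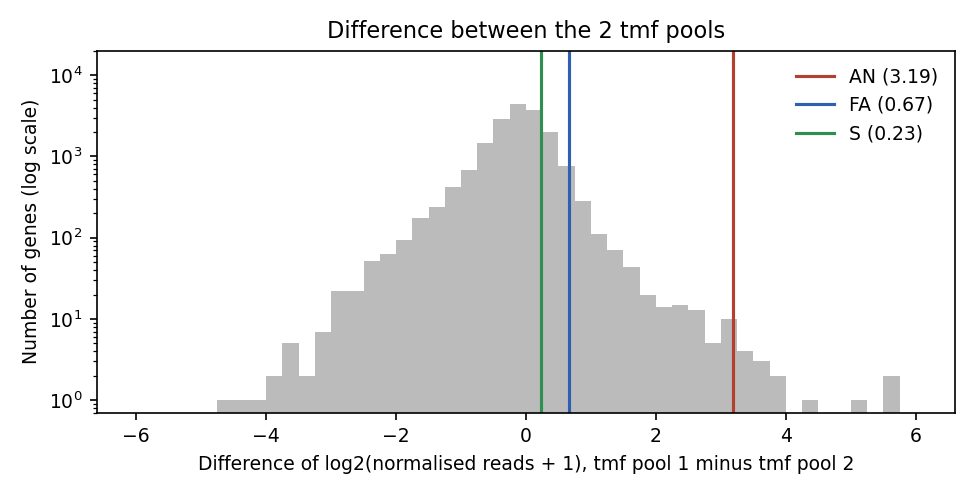
Distribution over 17617 genes of the difference in log2(normalised reads + 1) between tmf pool 1 and tmf pool 2, with the number of genes on a log scale. Vertical lines mark S at 0.23, FA at 0.67 and AN at 3.19, far in the right tail.

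The pattern of AN over the 4 libraries was closest to those of J2 and TM5, MADS-box genes of the SEPALLATA class. Proteins of that class join those of the other floral MADS-box genes to build each floral organ. Likeness was measured as the root mean square difference of log2(normalised reads + 1) after centring each gene on its mean of the 4 libraries. Listed genes without a paired name, other than TMF, were left out, so each member was compared with 34 listed genes, the other members included. Of 17616 other genes with a mean of at least 10, the nearest to AN was J2 (Solyc12g038510.1.1), at 0.53, and the next was TM5 (Solyc05g015750.2.1), at 0.54. J2 had 561 and 98.6 normalised reads in the tmf pools and 3.89 and 5.66 in the wild-type pools. TM5 had 311 and 57 against 1.41 and 1.74. Both shared with AN a higher level in tmf pool 1 than in tmf pool 2, and hardly any reads in the wild type. TM29 (Solyc02g089200.2.1), also of the SEPALLATA class, was the third nearest of the listed genes compared, at 0.93, with 5 genes of the whole table nearer.

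FA and S had other neighbours. Of the listed genes compared, the nearest to FA were TAGL1, SP2G and TM6, at 0.28, 0.29 and 0.32. Between 275 and 442 genes of the whole table lay nearer, so this likeness is ordinary. TAGL1 rested on 3 to 14 reads in a library and SP2G on 4 to 10. The nearest of all were Solyc12g057000.1.1, at 0.04 and with 55.4 and 34.8 normalised reads in the tmf pools against 20.8 and 20.5 in the wild-type pools, and Solyc03g115160.2.1, at 0.06. Of the listed genes compared, the nearest to S was FUL1 (Solyc06g069430.2.1), at 0.18, a MADS-box gene of the FRUITFULL type, with 158 genes nearer. FUL1 had 17.3 and 14.3 normalised reads in the tmf pools and 24.7 and 33.1 in the wild-type pools (limma adjusted p = 0.86), both tmf pools being lower, as for S. The boundary gene GOB, at 0.28, and the KNOX gene TKN1, at 0.41, followed on the list, behind 1368 and 7455 genes. The nearest of all to S were Solyc01g009620.2.1 and Solyc02g062460.2.1, each at 0.03, and the files do not pair these 4 identifiers with names.

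**Figure D4:**
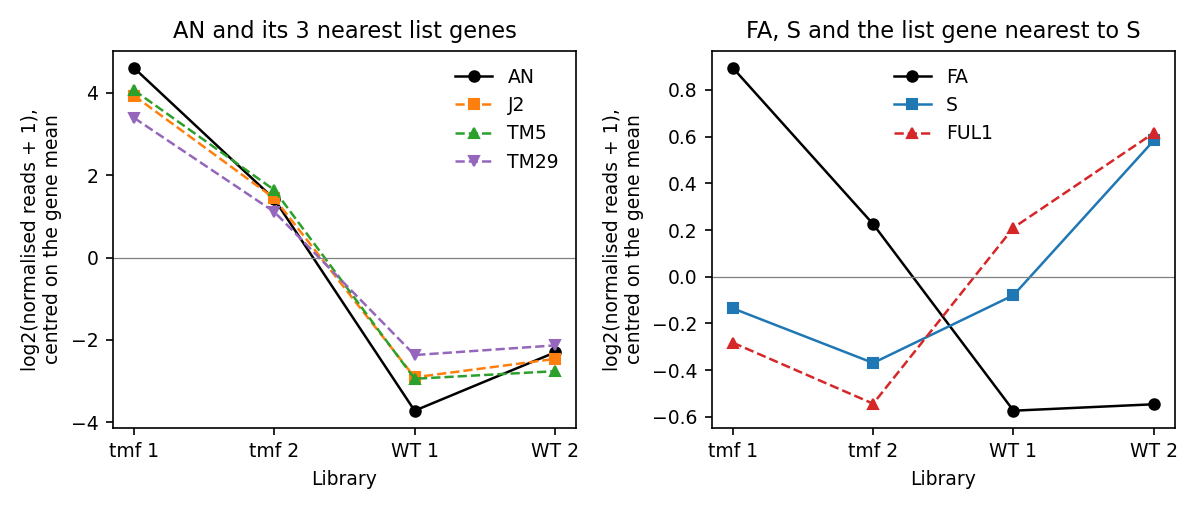
Log2(normalised reads + 1) in each library, centred on the mean of the gene over 4 libraries; lines join the points of a gene only to guide the eye. Left, AN with J2, TM5 and TM29, the nearest to it of the listed genes compared. Right, on a narrower axis, FA, S and FUL1, which lies 0.18 from S.

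Among genes that act with or after AN and FA, some of the floral organ genes rose in the mutant. Of 12 floral organ identity MADS-box genes, 11 were tested, and 3 passed as higher in the mutant: EJ2, J2 and TM5, all of the SEPALLATA class (limma adjusted p of 0.0012, 0.035 and 0.027). EJ2 had 596 and 253 normalised reads in the tmf pools and 1.41 and 2.18 in the wild-type pools. TM29 (log2 fold change 4.50, limma adjusted p = 0.061) and RIN (limma adjusted p = 0.96), also of the SEPALLATA class, did not pass. RIN had 3.05 and 6.27 in tmf pools 1 and 2, the reverse order of AN, and 1.06 and 2.61 in the wild-type pools. TM6, TAG1 and TAGL1 did not pass either (limma adjusted p of 0.63, 0.85 and 0.85). The share of 3 in 11 stands beside 0.131% of all tested genes called higher, and the list was chosen with these results known. The count depended on the tool, with 4 genes of the list called in edgeR, 7 in DESeq2 and 1 in limma-voom. Of the 11, 3 averaged under 1 normalised read in the wild type and passed the filter only through their mutant reads, so the list is not summarised by a median. TAP3 and TPI have a part in petal and stamen identity, and the LEAFY and UNUSUAL FLORAL ORGANS pair acts on their Arabidopsis counterparts. Both had few reads in the wild type, unlike TM6 of the same list, which had 100 and 139 normalised reads there. TAP3 had 17.8 and 11.4 in the tmf pools against 0 and 0.435 in the wild-type pools (limma adjusted p = 0.06). TPI had 24.9 and 10.8 against 0 and 0.87 (limma adjusted p = 0.092). In both genes the tmf pools lay above the wild-type ones, as in 20.7% of tested genes, without passing the test. TAP3 and TPI are among the 3 genes that passed the filter only through their mutant reads, so this position adds no support. Summed over the list, the level was 1986 and 705 in tmf pools 1 and 2 and 112 and 165 in the wild type. Most of the wild-type sum was TM6, with 100 and 139 there against 205 and 201 in the tmf pools. The tmf sums came mostly from EJ2, J2, TM5, TM29 and TM6, so they do not show a rise of the whole list. Without wild-type pool 1, and likewise without wild-type pool 2, 0 genes of the list passed, and the lone wild-type library was then assumed to vary like the mutant pair.

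Of 8 inflorescence and floral meristem MADS-box genes, which act in the transition to flowering, 1 identifier had no match, 6 were tested and 0 passed in limma over all genes (2 at an unadjusted p under 0.05, 1 in DESeq2 and 0 in limma-voom). One of the 6 passed the filter only through its mutant reads. FUL2, also of the FRUITFULL type, had 361 and 159.6 normalised reads in the tmf pools and 25.4 and 37 in the wild-type pools (limma adjusted p = 0.055). On recovered reads edgeR's quasi-likelihood fit called it (adjusted p = 0.037), as it did 0.233% of tested genes and no other gene of the list, and 2 genes of the list passed in limma without tmf pool 2, where 0.286% of tested genes did and the spread again came from the wild-type pair alone.

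On the remaining lists, TMF passed in limma and the other tested genes did not. BLADE-ON-PETIOLE proteins bind the TMF protein in tomato. BOP2 had 357 and 530 normalised reads in the tmf pools against 297 and 396 in the wild-type pools (limma adjusted p = 0.99), and BOP3 390 and 480 against 308 and 331 (limma adjusted p = 0.88). Of the 4 genes of that list, TMF passed, as lower. Of 6 genes on the florigen list, which adds Solyc02g083520.2.1 from outside the family, 3 were tested and 0 passed in limma, edgeR or DESeq2. Their median log2 fold change was 0.95. The 1 gene at an unadjusted limma p under 0.05 was Solyc02g083520.2.1 (log2 fold change 1.24, limma adjusted p = 0.29), and not a florigen family gene. SFT, the tomato florigen, had no read in any library, where the floor of 3 reads equals 1.71 normalised reads in the shallowest. The 3 homeobox genes of the WUSCHEL family listed beside S did not pass in limma, edgeR or DESeq2, nor at an unadjusted limma p under 0.05, and their median log2 fold change was 0.13. WUS, the stem cell organiser of that family, had 157 and 46.7 normalised reads in the tmf pools and 51.9 and 92.7 in the wild-type pools, with overlap between genotypes. Of the 8 shoot meristem and boundary genes and the 6 leaf photosynthesis genes, 0 passed in limma or edgeR, with median log2 fold changes of 0.38 and -0.20. At an unadjusted limma p under 0.05 these lists had 0 and 2 genes, and in DESeq2 0 and 1.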

How the data were processed

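Messenger RNA from pooled, acetone-fixed meristems was sequenced in 4 libraries, 2 per genotype. The authors deposited 1 signal value per gene and library, which sums to 10000000 in every library. Dividing by the smallest value in a library gave whole numbers for 100% of non-zero entries (tolerance 1e-06), taken as the reads. Bowtie 0.12.5 and edgeR are named in the submitters' processing notes; not given in the sources used here are build, counting tool, strandedness and multi-mapping. The main test was limma 3.58.1 (R 4.3.3) with a trend on log2(value + 1) for genes with a mean of at least 1, Benjamini-Hochberg adjusted over 21437 genes, threshold 0.05; this scale understates changes of low genes. edgeR 4.0.16 (quasi-likelihood; 50 genes called) and DESeq2 1.42.0 on the reads were alternatives. Counting intervals are exact (95%) and ignore PCR duplication; floors are 3 reads. The labels say that replicates are biological but name no batch. The members and lists were chosen with earlier results of these data known. Named were AN, FA, S, TMF, list genes past the threshold or needed to show a range, and genes of most similar pattern. Names were printed where the RefSeq table (assembly SLM_r2.1) places a gene of that name or alias on the same chromosome within 5 percentage points of its relative order, which held for AN, FA and S and for 36 of 46 other identifiers; TMF rests on nomenclature. FA matched as FALSIFLORA, EJ2 as MADS1, TAP3 as DEF and GOB as goblet. Sequences and transcript lengths were not used here. The limma script was tested on simulated data.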

Additional observations from a re-analysis of the deposited data

How the results depend on the processing

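AN and FA kept a positive and S a negative log2 fold change under all 16 alternatives run for each. AN ranged from 4.43 to 7.62 and S from -0.84 to -0.17, and S passed in none. Leaving out 1 library gave 4.43 to 7.62 for AN, 0.79 to 1.45 for FA and 6 to 61 for the number of genes called (main value 46); AN passed only without mutant replicate 2. DESeq2 called 214 genes, AN (7.37, adjusted p = 0.0053) and FA (1.12, adjusted p = 0.04) among them; the limma-voom count was 27. No source says that equal replicate numbers mark shared plants or days (same-numbered deviations correlated at -0.109): the replicate block called 368 genes and AN (6.03), and the crossed replicate block, added after the data were seen, called 219 genes, AN (6.03) and FA (1.12). The cause of these shifts was not tested. The ratio differences kept their sign under all 7 alternatives each, with leave-one-out values of 4.66 to 7.52 (AN to FA), -1.98 to -1.32 (S to FA) and 6.26 to 9.23 (AN to S). Paired within same-numbered libraries (the replicate block), they were 6.09, -1.65 and 7.74, with the smallest exact p of 0.5. A limma fit of every gene's ratio to FA gave 4.91 for AN (adjusted p = 2.7e-08) and -1.62 for S (adjusted p = 0.10), and that to S gave 6.53 for AN (adjusted p = 3.6e-14). In these fits the deviations of FA or S enter every gene, and the moderated SD of AN, 0.74 and 0.64, lay far below its own residual SD, 1.44 and 1.53, so these p-values are not relied on. List counts without 1 library ran from 0 to 4 for floral organ genes (main value 3) and from 0 to 2 for inflorescence MADS-box genes (main value 0; 1 with edgeR), and the other lists kept their counts. Ratios per coding length were not run. The depth limit is 1 to 6 AN reads in the wild type.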

Other observations

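AN belonged to a small group of genes with hardly any reads in the wild type and many in the mutant, counted with bounds chosen after its values were seen. Of 21437 tested genes, 1507 (7.03%) were at or below 2.61 normalised reads, the higher wild-type level of AN, in both wild-type pools. Of these, 11 were at or above 46.7, the lower mutant level of AN, in both tmf pools. The group held AN and, of the listed genes, EJ2 and TM5; the files do not pair the other 8 identifiers with names. J2, at 3.89 and 5.66 normalised reads in the wild type, lay above the wild-type bound. TM29 missed both bounds, with 3.18 and 3.92 in the wild type and 45.6 in tmf pool 2.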
